A study of Mus musculus with 4 samples.

Results

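The 10 genes described here encode ligands, receptors and a sensor of the interleukin-1 (IL-1) family: Il1b, Il1a, Il1rn, Il1r1, Il1r2, Il1rap, Il18, Il18r1, Il18rap and Nlrp3. They were found by symbol in the feature list of a mouse single-cell RNA matrix, and all 10 were present. The cells were cardiac interstitial cells, the non-muscle cells left after heart digestion and straining, from mice that had a stroke (2 samples) or served as controls (2 samples), taken 1 month afterwards. All 4 samples were of the strain Ccr2creERT2-Ai14, in which an inducible Cre recombinase driven by Ccr2, the chemokine receptor of inflammatory monocytes, switches on the red reporter tdTomato. No sample was free of these transgenes, and the labels state no age. The study asked how a brain injury leaves a lasting mark on the immune cells of the heart.

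The barcodes of the matrix carry suffixes 1 to 4, which mark 4 libraries, and no label ties a library to a stroke or a control sample. The matrix was therefore treated as 1 sample, no stroke and control values were set against each other, and no test was run. Levels are given as CPM, the UMIs of a gene per 1000000 UMIs, summed over the cells of a class. A UMI is a tag that counts 1 captured RNA molecule at its 3′ end, so a level is not scaled by gene length. Each level has an exact Poisson 95% interval in brackets, and each share of cells an exact Clopper-Pearson 95% interval. These intervals cover counting error only, and the values in the 4 libraries stand for the spread between samples.

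IL-1α (Il1a) and IL-1β (Il1b) both signal through the receptor IL1R1 (Il1r1), which needs the accessory chain IL1RAP (Il1rap) to recruit its intracellular adaptor. IL1R2 (Il1r2) binds the same ligands but lacks a signalling domain and so acts as a decoy, and the antagonist IL-1RA (Il1rn) occupies IL1R1 without triggering it. IL-18 (Il18) has its own pair of chains, the ligand-binding IL18R1 (Il18r1) and the accessory IL18RAP (Il18rap). IL-1β and IL-18 are made as inactive precursors, and NLRP3 (Nlrp3) is the sensor of an inflammasome that lets caspase-1 cut them. In the heart, this system is best known for the inflammation that follows infarction.

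After quality filters and removal of doublets, 37594 cells were kept. The libraries held 8625 to 10031 cells each and 31955157 to 45834980 deposited UMIs, with median depths of 2583 to 3487 UMIs per cell. Clusters were named from marker lists, giving 19 classes of at least 50 cells, and 2408 cells stayed without a class. Library 1 held 45 of the 414 neutrophil-like cells, and 46.7% of those 45 were of an immature subtype, against 0.741% to 9.17% in the other libraries. In library 3, 7.33% of cells were fibroblast-like, against 20.4% to 34.3% in the others. Between libraries, 161 barcode sequences occurred more than once, 138 of them among the kept cells. The 7 neutrophil markers summed to 157881 CPM in the neutrophil-like class and to 11.3 to 213 CPM in every other class. The venous endothelial-like name is weaker: its markers summed to 1897 CPM there and to 1981 CPM in endocardial-like cells. A cardiomyocyte-like cluster of 33 cells was too small to describe.

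In the mouse genome (mm10, GENCODE vM21 coordinates), 4 of the 10 genes lie in a row on the plus strand of chromosome 1 within 478 kb. They are Il1r2 (chr1:40074079-40125231), Il1r1 (chr1:40225080-40317257), Il18r1 (chr1:40465552-40500854) and Il18rap (chr1:40515362-40551705). Il1a (chr2:129299610-129309972) and Il1b (chr2:129364570-129371139) are 54.6 kb apart on the minus strand of chromosome 2, where Il1rn (chr2:24336853-24351494, plus strand) also lies. Il18 (chr9:50554827-50581840), Nlrp3 (chr11:59541568-59566956) and Il1rap (chr16:26581704-26730117) are on plus strands elsewhere. All 10 are protein-coding genes.

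The promoters of 4 genes that were high together in neutrophil-like cells, and that of Il1r1, which was nearly absent there, are shown as the 200 bases before a RefSeq start site (GRCm38.p6, each 5′ to 3′ on the gene's own strand). Capitals mark a TATA match (TATAAA) in Il1b, a PU.1 match (GAGGAAG) in Nlrp3 and Il18rap, and a C/EBP match (TTGCNNAA) in Il1r1.
Il1b (chr2:129371140-129371339, minus strand): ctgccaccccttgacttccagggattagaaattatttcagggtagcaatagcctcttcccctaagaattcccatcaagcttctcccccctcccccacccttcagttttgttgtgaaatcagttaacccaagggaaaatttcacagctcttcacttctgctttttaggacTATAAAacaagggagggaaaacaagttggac
Nlrp3 (chr11:59542486-59542685, plus strand): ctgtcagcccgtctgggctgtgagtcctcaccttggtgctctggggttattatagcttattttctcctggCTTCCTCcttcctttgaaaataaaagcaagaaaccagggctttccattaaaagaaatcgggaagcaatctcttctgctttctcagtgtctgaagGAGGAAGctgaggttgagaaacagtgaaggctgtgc
Il18rap (chr1:40515162-40515361, plus strand): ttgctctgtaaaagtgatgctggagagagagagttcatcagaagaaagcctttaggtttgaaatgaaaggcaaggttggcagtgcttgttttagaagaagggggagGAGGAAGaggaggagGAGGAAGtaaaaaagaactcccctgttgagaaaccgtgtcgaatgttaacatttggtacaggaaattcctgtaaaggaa
Il1r2 (chr1:40085893-40086092, plus strand): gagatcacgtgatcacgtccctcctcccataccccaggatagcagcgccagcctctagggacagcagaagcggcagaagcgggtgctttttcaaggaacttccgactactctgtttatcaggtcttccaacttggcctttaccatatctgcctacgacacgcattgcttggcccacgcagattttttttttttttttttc
Il1r1 (chr1:40224880-40225079, plus strand): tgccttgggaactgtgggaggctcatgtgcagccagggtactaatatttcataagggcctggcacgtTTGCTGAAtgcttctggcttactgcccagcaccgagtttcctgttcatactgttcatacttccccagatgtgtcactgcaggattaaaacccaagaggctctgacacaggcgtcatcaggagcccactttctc
RefSeq gave 16 start sites for the 10 genes. On both strands, 6 motifs were searched, and no matches shared a base. The TATA match of Il1b began 31 bases before its start, and 9.96% of all 32851 promoter windows held such a match. PU.1, a transcription factor of myeloid cells, had matches 130 and 36 bases before the shown Nlrp3 start, and 94 and 79 bases before the Il18rap start. The other Nlrp3 window (chr11:59541369-59541568) held no match to any motif. Of all windows, 8.84% held the PU.1 match. Il1a had PU.1, TATA and AP-1 (TGANTCA) matches 41, 32 and 12 bases before its start. NF-kB, searched by its common consensus and found in 1.18% of all windows, matched in 1 of the 16 windows, 51 bases before the third Il1rn start. The first Il1rn window held AP-1 (5.48% of all windows), Il18 held TATA, and the third Il18r1 window held PU.1. CRE (TGACGTCA, 1.47% of all windows) matched in none of the 16, and the C/EBP match of Il1r1 occurs in 7.47% of all windows. The windows of Il1r2 and Il1rap held no match to these letters, nor did the remaining windows of Nlrp3, Il1r1, Il18r1 and Il1rn. A match describes the sequence and is not a binding site.

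The 10 genes fell into a small number of class patterns. Neutrophil-like cells had the highest level of 5 of them (Il1b, Il1r2, Il1rn, Il1rap and Nlrp3). Of all 11868 features that reached 20 CPM in a class, 6.7% were highest in neutrophil-like cells. Macrophage-like cells led for Il1a, venous endothelial-like cells for Il1r1, epicardial or mesothelial-like cells for Il18, T cell-like cells for Il18r1 and NK cell-like cells for Il18rap. The most widely detected gene was Il1r1, with a UMI in 22.0% of all kept cells, and the rarest was Il1a, with a UMI in 0.285%. Il1b had 20091 UMIs in 3.45% of the cells, so its molecules were many per cell in few cells.

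**Figure D1:**
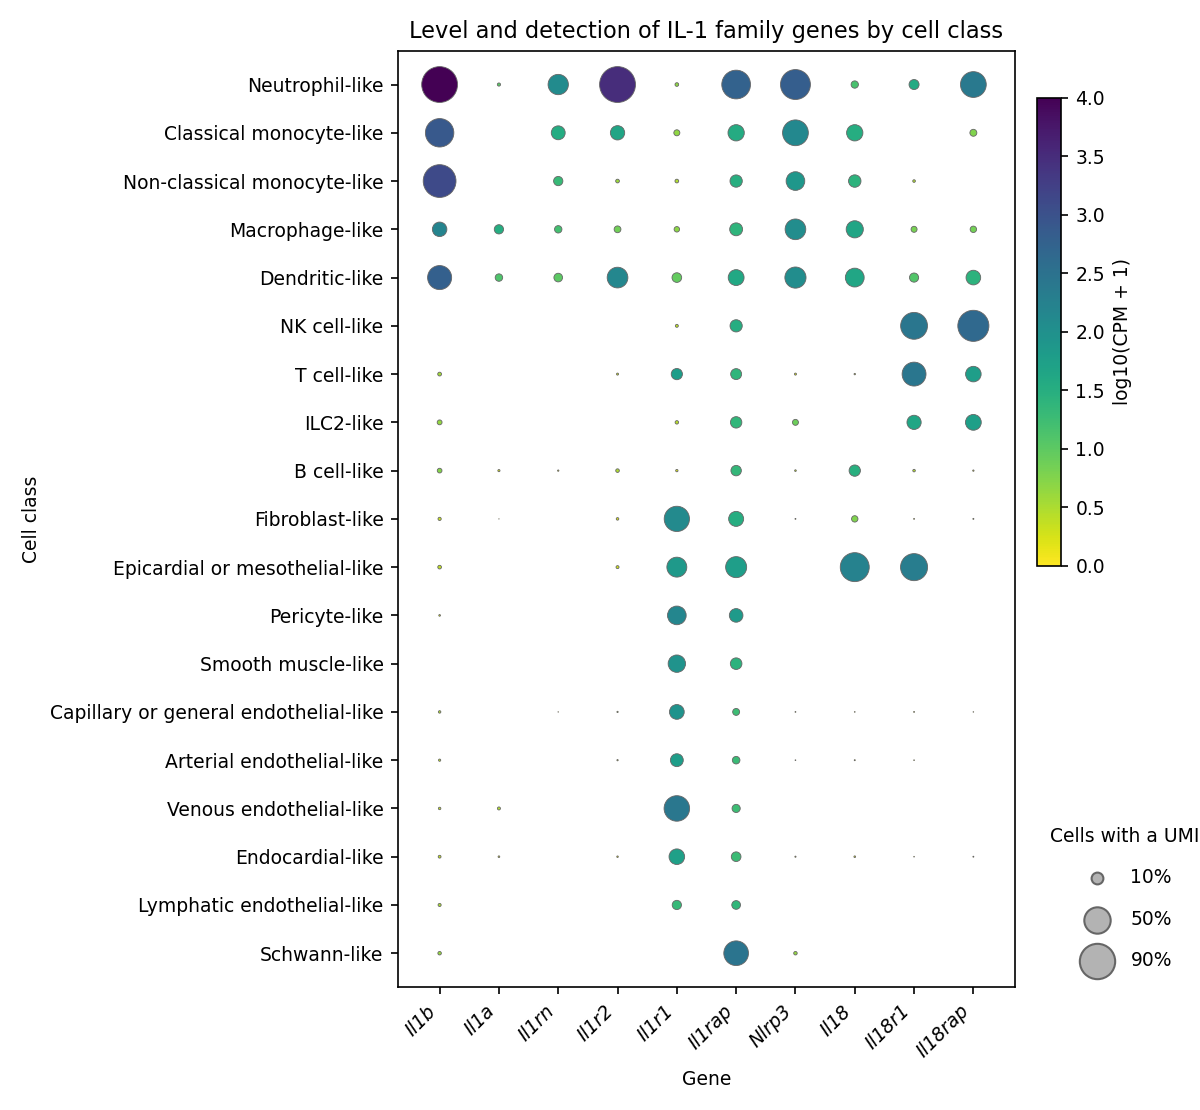
Level (colour, log10 of CPM + 1) and share of cells with a UMI (area of the circle) of the 10 genes (horizontal axis) in 19 cell classes (vertical axis). Il1b and Il1r2 are darkest in neutrophil-like cells at 9887 and 3108 CPM, Il1r1 fills the stromal and vascular rows, and Il18r1 and Il18rap fill the NK cell-like row.

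Il1b, the gene of IL-1β, was carried mainly by neutrophil-like cells. Its level there was 9887 CPM [9720 to 10057], and 92.5% [89.5 to 94.9] of the 414 cells had a UMI. Library by library the level was 2125, 12029, 11735 and 11168 CPM. Library 1 was thus the low library, and the other 3 lay close together. Non-classical monocyte-like cells followed at 1255 CPM [1206 to 1306], with 694, 1713, 611 and 1125 CPM in the 4 libraries. The ratio of neutrophil-like to non-classical monocyte-like cells was 7.88 [7.54 to 8.23], and in each library the neutrophil-like level was the higher of the pair. Classical monocyte-like cells had 793 CPM [734 to 856], dendritic-like cells 611 CPM [570 to 655] and macrophage-like cells 155 CPM [146 to 165]. No other class was above 4.54 CPM, and 2 classes had no Il1b UMI. Of all Il1b UMIs, 66.0% lay in neutrophil-like cells, 12.3% in non-classical monocyte-like cells and 8.00% in cells without a class.

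A background for such shares was read from capillary or general endothelial-like cells, where 0.444% of 15547 cells had an Il1b UMI. The median depth was 2965.5 UMIs in neutrophil-like cells, against 2099 UMIs in these endothelial-like cells. In neutrophil-like cells, 6.93 [6.81 to 7.06] Il1b UMIs accompanied every 100 UMIs of the neutrophil genes S100a8 and S100a9, against 9.64 [7.43 to 12.3] in the endothelial-like cells. These Il1b intervals did not overlap, whereas those of Il1r2 did, at 2.18 [2.11 to 2.25] per 100 in neutrophil-like cells and 2.62 [1.57 to 4.12] in the endothelial-like cells. Shares near or below this level were read as background and not as expression. With each cell thinned to 1000 UMIs, 90.5% of neutrophil-like cells still had Il1b.

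Per cell, Il1b was less concentrated in few cells in the neutrophil-like class than in the macrophage-like class. Neutrophil-like cells held a median of 32 Il1b UMIs, with quartiles of 17 and 44 and a maximum of 107, and the 42 cells with the most held 21.7% of the class's Il1b. Non-classical monocyte-like cells held a median of 3, with quartiles of 1 and 9. In macrophage-like cells the median was 0, 15.1% of cells had a UMI, and the 111 cells with the most held 94.7% of the Il1b UMIs.

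**Figure D2:**
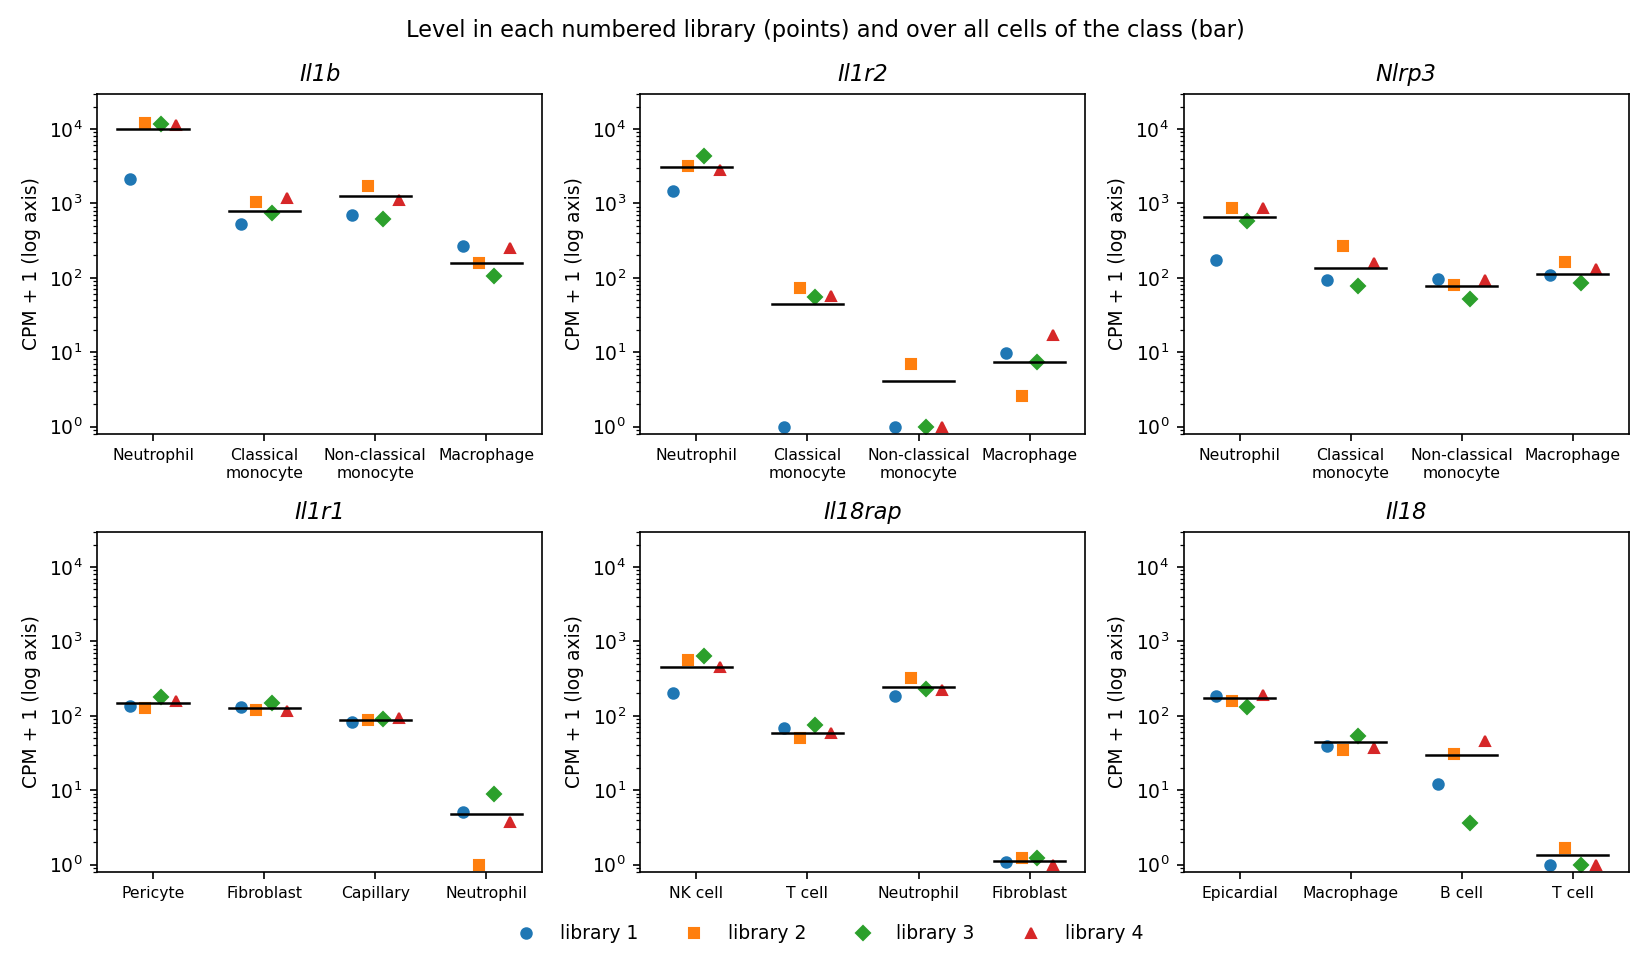
Level of 6 genes (vertical axes, CPM + 1, log scale) in chosen classes (horizontal axes, all names to be read as X-like). Points are the 4 numbered libraries and bars the value over all cells of the class; the neutrophil-like Il1b point of library 1 lies at 2125 CPM, below 11168 to 12029 CPM in the other 3.

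Il1a, the gene of IL-1α, was rare and macrophage-borne. Macrophage-like cells had 32.1 CPM [28.0 to 36.6] with a UMI in 6.22% of cells, and held 71.2% of all 313 Il1a UMIs. The libraries had 11.3, 70.2, 6.95 and 71.4 CPM, so libraries 2 and 4 were high and libraries 1 and 3 low. The macrophage-like level was 2.67 times [1.61 to 4.75] that of dendritic-like cells, which had 16 UMIs in 6 cells. Neutrophil-like cells had 13 UMIs in 3 cells (9.70 CPM), against 13252 Il1b UMIs in the same class. None of the 15547 capillary or general endothelial-like cells had Il1a, and the interval of that share reached 0.0237%. This is a limit on cells with a UMI and not on cells that express the gene. Of the 19 classes, 12 were at 0.

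Il1rn, the gene of the antagonist, followed Il1b at a lower level. In neutrophil-like cells it stood at 122 CPM [104 to 142], with 56.9, 165, 120 and 126 CPM in the 4 libraries and a UMI in 29.7% of cells. Library 1 was again the low library. Classical monocyte-like cells had 33.5 CPM, and the neutrophil-like level was 3.63 times that [2.42 to 5.63]. Non-classical monocyte-like, macrophage-like and dendritic-like cells had 18.8, 14.7 and 9.03 CPM, and 12 classes were at 0. The capillary or general endothelial-like background was 0.0193% of cells. Set against Il1b in the same cells, the antagonist was the minor product: Il1b made up 98.8% of the Il1b and Il1rn UMIs of neutrophil-like cells, 98.5% in non-classical monocyte-like cells, 95.9% [94.2 to 97.3] in classical monocyte-like cells and 91.4% [89.6 to 92.9] in macrophage-like cells.

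Nlrp3, the inflammasome sensor, was also highest in neutrophil-like cells, at 654 CPM [612 to 699] with a UMI in 64.5% of cells. The 4 libraries had 175, 860, 586 and 854 CPM. Its next classes were classical monocyte-like (134 CPM [110 to 161]), macrophage-like (113 CPM), dendritic-like (113 CPM) and non-classical monocyte-like cells (75.8 CPM). The neutrophil-like level was 4.88 times the classical monocyte-like level, while the intervals of the 3 classes that came next overlapped. Macrophage-like cells were more numerous and held 32.9% of all Nlrp3 UMIs, close to the 36.8% in neutrophil-like cells. In capillary or general endothelial-like cells, 0.0515% of cells had Nlrp3.

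Pycard, Casp1 and Gsdmd, which act with NLRP3, were lower in neutrophil-like than in monocyte-like cells. The list of inflammasome genes (sensors, adaptor, caspases and pore) had 11 genes, of which 1, Casp4, was highest in neutrophil-like cells, against 4 in classical monocyte-like and 3 in non-classical monocyte-like cells. Of all features, 6.7% were highest in neutrophil-like, 4.09% in classical monocyte-like and 6.8% in non-classical monocyte-like cells. Casp4, the mouse caspase-11 that senses bacterial lipopolysaccharide inside cells, had 181 CPM in neutrophil-like cells. Pycard, the adaptor that joins NLRP3 to caspase-1, had 23.9 CPM in neutrophil-like cells, against 329 CPM in classical monocyte-like and 122 CPM in non-classical monocyte-like cells. Casp1, the gene of caspase-1 itself, had 35.1 CPM in neutrophil-like cells, against 87.5 and 90.5 CPM in classical and non-classical monocyte-like cells. Gsdmd, the pore protein cut by the caspases, had 44.0 CPM in neutrophil-like cells, against 85.1 and 72.2 CPM in the same monocyte-like classes. Mefv, the gene of the sensor pyrin, was close to even at 73.1 CPM in neutrophil-like and 81.5 CPM in classical monocyte-like cells. In non-classical monocyte-like cells it was lower, at 21.9 CPM.

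In single cells the split was read against depth. An Il1b UMI and a Casp1 UMI occurred together in 7.97% of neutrophil-like cells, against 28.7% of classical monocyte-like and 27.3% of non-classical monocyte-like cells. The median depth was 2965.5 UMIs in neutrophil-like cells, 7581 in classical monocyte-like and 4888 in non-classical monocyte-like cells. At 1000 UMIs per cell the shares were 3.23% [1.73 to 5.47] in neutrophil-like, 3.54% in classical monocyte-like and 3.80% in non-classical monocyte-like cells. These joint shares also carry the detection of Il1b, so they do not describe Casp1 alone. By itself and thinned, Casp1 was found in 3.48% [1.92 to 5.77] of neutrophil-like, 7.96% [3.71 to 14.6] of classical monocyte-like and 7.85% of non-classical monocyte-like cells. Pycard, thinned, was found in 1.74% [0.703 to 3.55] of neutrophil-like, 20.4% [13.4 to 29.0] of classical monocyte-like and 10.4% [7.55 to 13.8] of non-classical monocyte-like cells. The neutrophil-like interval lay below both others for Pycard and overlapped with both for Casp1. Nlrp3 and Pycard occurred together in 3.38% of neutrophil-like cells, against 40.0% of classical monocyte-like and 10.2% of non-classical monocyte-like cells. Thinned, 3 of 402 neutrophil-like, 0 of 113 classical monocyte-like and 3 of 395 non-classical monocyte-like cells held that pair, too few to compare.

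Il1r2, the decoy receptor, was the gene most confined to neutrophil-like cells. Its level there was 3108 CPM [3014 to 3203], with 1487, 3150, 4389 and 2825 CPM in the 4 libraries. It was detected in 92.8% of the cells, in 80.8% when thinned, and in 0.116% of capillary or general endothelial-like cells. Dendritic-like cells came next at 141 CPM with 30.9% of cells, and the neutrophil-like level was 22.1 times theirs [19.1 to 25.7]. Classical monocyte-like cells had 43.1 CPM, and non-classical monocyte-like cells, second for Il1b, had 3.05 CPM. Neutrophil-like cells held 84.2% of all Il1r2 UMIs.

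Il1r1, the signalling receptor, had the opposite distribution. Neutrophil-like cells had 5 Il1r1 UMIs in 4 of 414 cells, so Il1r2 made up 99.9% of the UMIs of these receptor genes there, and 94.4% in dendritic-like cells. The neutrophil-like share of cells with Il1r1 was 0.966% [0.264 to 2.46], against 0.399% [0.146 to 0.866] in B cell-like cells, the background for this gene, and these intervals overlapped. In vascular and stromal classes, Il1r1 stood at 261 CPM [237 to 288] in venous endothelial-like cells, 146 CPM [124 to 170] in pericyte-like cells and 125 CPM [122 to 128] in fibroblast-like cells. The 4 libraries gave 198, 244, 288 and 310 CPM for venous endothelial-like cells. For pericyte-like cells they gave 136, 125, 175 and 159 CPM, and for fibroblast-like cells 131, 118, 147 and 115 CPM. The venous endothelial-like level exceeded the pericyte-like level 1.80 times [1.49 to 2.17] and was higher in each library, whereas pericyte-like and fibroblast-like cells overlapped. Sub-clusters without a class from the same endothelial cluster as the venous endothelial-like cells had 196 to 260 CPM. Capillary or general endothelial-like cells had 88.1 CPM, smooth muscle-like cells 85.6 CPM, epicardial or mesothelial-like cells 69.7 CPM and arterial endothelial-like cells 59.7 CPM. By numbers, fibroblast-like cells held 49.3% of all Il1r1 UMIs and capillary or general endothelial-like cells 24.2%. Lymphatic endothelial-like cells, at 19.9 CPM, were the vascular class with the least.

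**Figure D3:**
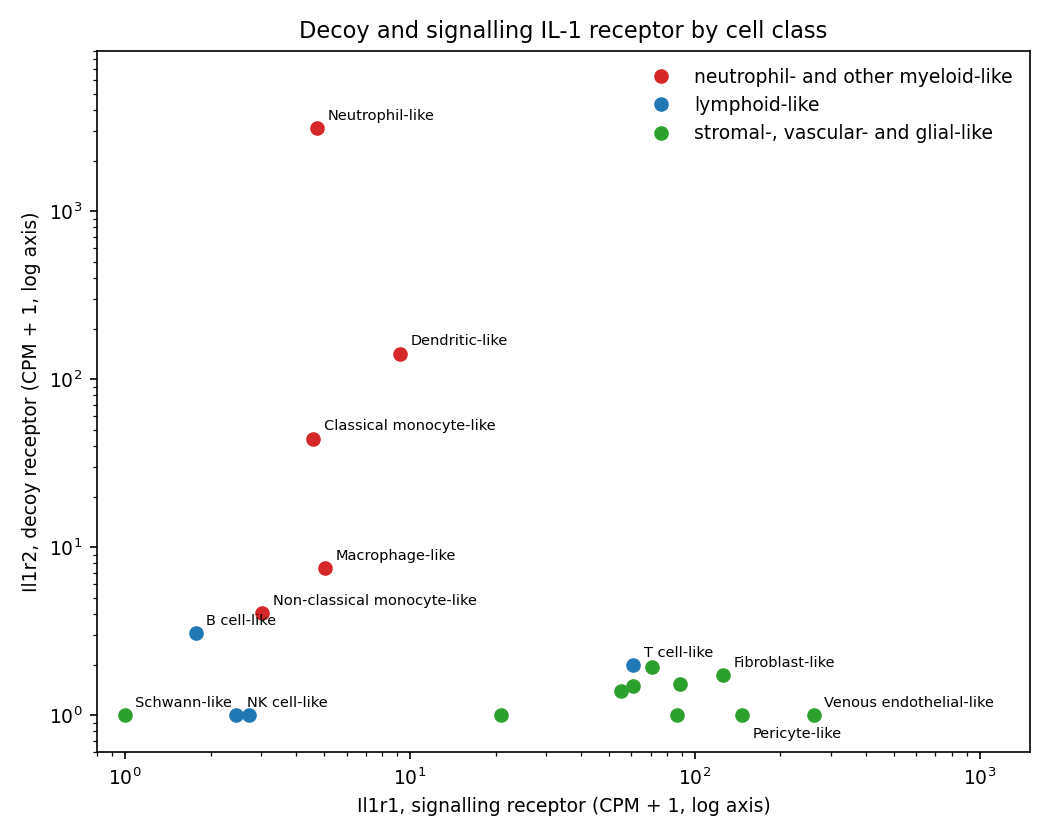
Il1r1 (horizontal axis) and Il1r2 (vertical axis) levels, CPM + 1 on log scales, with 1 point for each of 19 cell classes. Neutrophil-like cells stand at 3108 CPM of Il1r2 and 3.73 CPM of Il1r1, and stromal and vascular classes lie along the bottom with up to 261 CPM of Il1r1.

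Il1rap, the chain shared by IL1R1 and the decoy, was found in all 19 classes. T cell-like cells, the class planned as its background, had 23.0 CPM with a UMI in 8.62% of cells. They were therefore not read as a background, and no other class was used in their place. It was highest in neutrophil-like cells at 562 CPM [522 to 603], with 313, 748, 552 and 567 CPM in the 4 libraries and a UMI in 59.4% of cells. Schwann-like cells, the glia of cardiac nerves, had 283 CPM with 43.9% of cells. They had no Il1r1 UMI in 114 cells at a median of 2103.5 UMIs, where the interval of the share reached 3.18%. The neutrophil-like level was 1.98 times the Schwann-like level [1.58 to 2.52]. Pericyte-like cells had 67.0 CPM, epicardial or mesothelial-like cells 58.9 CPM and fibroblast-like cells 31.5 CPM. Endothelial-like classes other than lymphatic had 16.9 to 18.5 CPM. The venous endothelial-like class, first for Il1r1, had the lowest Il1rap value, 16.9 CPM from 26 UMIs. Its interval overlapped with those of the other endothelial-like classes and of B cell-like, T cell-like and macrophage-like cells. Its last place for Il1rap was therefore within counting error.

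At full depth, most cells with both Il1r1 and Il1rap were fibroblast-like. Of 965 cells with both, 65.3% were fibroblast-like and 9.53% capillary or general endothelial-like. In fibroblast-like cells 630 of 7845 (8.03% [7.44 to 8.65]) had both, where the product of the separate shares is 7.45%. The libraries had 8.35%, 9.22%, 12.2% and 5.12%. In epicardial or mesothelial-like cells 11.3% had both (product 9.11%), in pericyte-like cells 4.86% (product 3.35%) and in venous endothelial-like cells 1.97% (product 2.26%). Joint detection thus lay near the product of the separate shares. These shares move with depth, and the median was 6383 UMIs in fibroblast-like, 2081 in pericyte-like and 3181 in venous endothelial-like cells. Thinned to 1000 UMIs, 0.349% [0.230 to 0.508] of fibroblast-like, 1.13% [0.368 to 2.62] of pericyte-like and 0.668% [0.138 to 1.94] of venous endothelial-like cells had both, so the higher fibroblast-like share was not kept at equal depth, where the intervals overlapped.

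In neutrophil-like cells the ligand and the decoy were found in the same cells. Il1b and Il1r2 were detected together in 362 of 414 cells (87.4% [83.9 to 90.5]), where the product of the shares is 85.8%. In the libraries the share was 57.8%, 91.7%, 95.6% and 85.6%. Il1r2 was found in 94.5% [91.7 to 96.6] of cells with Il1b and in 71.0% [52.0 to 85.8] of the 31 cells without it. Cells with Il1b had a median of 2940 UMIs, against 5879 in cells without it, so the cells without it were deeper. At 1000 UMIs per cell, Il1r2 was found in 86.3% [82.3 to 89.6] of cells with Il1b and in 28.9% [15.4 to 45.9] of cells without it. Immature cells made up most of those without Il1b, since 11 of 37 immature cells had an Il1b UMI. Within sub-clusters, joint detection lay at the product of the shares: 96.4% and 96.4% in the largest, and 21.6% and 21.7% in the immature subtype. Of all 445 cells in the data with both genes, 81.3% were neutrophil-like.

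Nlrp3 detection also differed between cells with and without Il1b. Most cells without it were immature, a subtype with 75.7 CPM of Nlrp3 against 796 CPM in the other neutrophil-like cells. The part of subtype in the differences below was not tested. Nlrp3 was found in 68.7% [63.8 to 73.3] of neutrophil-like cells with Il1b and in 12.9% [3.63 to 29.8] of those without, and thinned in 44.2% and 5.26%. Il1rn was found in 31.1% of cells with Il1b and in 12.9% [3.63 to 29.8] of cells without, and thinned in 10.7% [7.73 to 14.4] and 2.63% [0.0666 to 13.8], with overlapping intervals at both depths. All of Il1b, Il1r2 and Nlrp3 occurred together in 249 neutrophil-like cells, 82.7% of the 301 such cells in the data. Il1r2 and Il1rap, the decoy and its possible partner chain, occurred together in 57.2% of neutrophil-like cells (product 55.1%), and Il1r1 and Il1r2 in 4 cells. The early-response genes (Fos, Jun, Egr1 and others, 11 genes that can be switched on by tissue digestion) summed to 12890 CPM in neutrophil-like cells with Il1b, against 1397 CPM in those without. The immature subtype had 1257 CPM. Over the classes that sum was highest in the neutrophil-like class, at 10976 CPM, followed by macrophage-like (8384 CPM) and ILC2-like cells (7750 CPM), and its part in the Il1b levels was not tested.

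**Figure D4:**
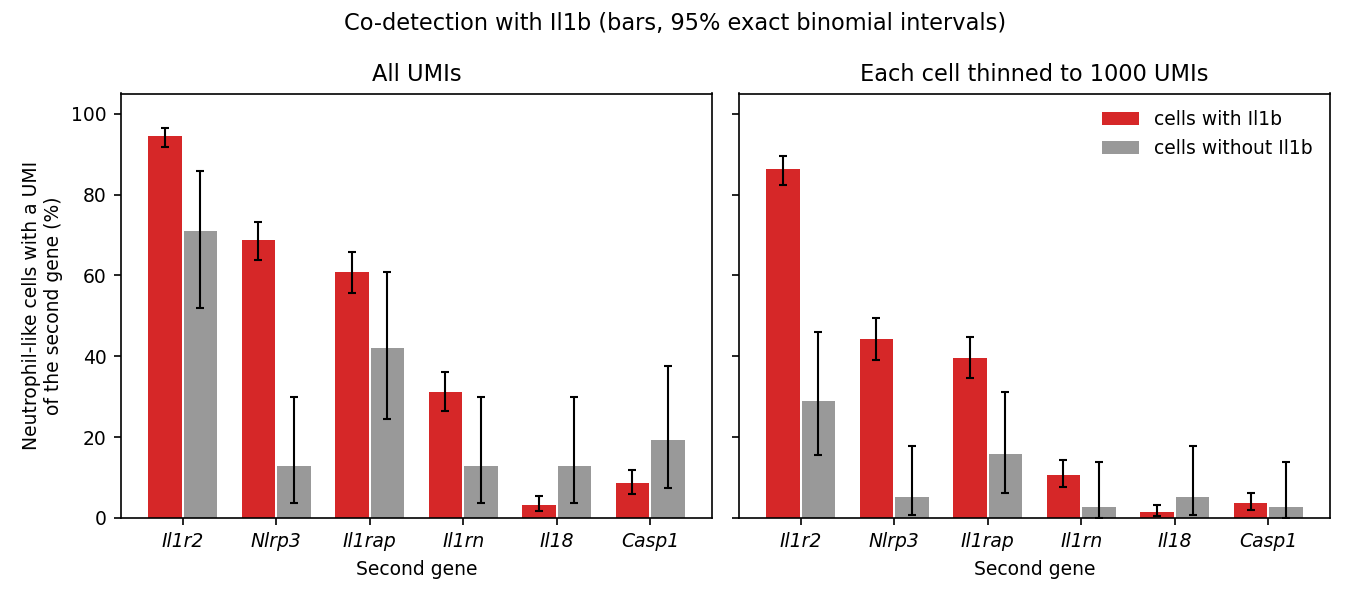
Share of neutrophil-like cells with a UMI of the second gene (horizontal axis) among cells with and without Il1b, with exact binomial 95% intervals, at full depth (left) and at 1000 UMIs per cell (right). At full depth Nlrp3 is found in 68.7% of cells with Il1b and in 12.9% of cells without, most of them immature.

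Set against the pooled monocyte-like classes (518 cells), 7 of the 8 genes that reached 20 CPM on either side were at least 2-fold higher in neutrophil-like cells, with 20 CPM added to each side. Of all 6386 features tested in this way, 9.41% were that much higher and 25.7% that much lower. The ratios were 207 [153 to 288] for Il1r2, 169 [65.5 to 625] for Il18rap, 25.6 for Il18r1, 17.9 for Il1rap, 8.85 [8.51 to 9.20] for Il1b, 7.02 for Nlrp3 and 5.24 for Il1rn. Il1r2, Il18r1 and Il18rap reached 20 CPM in neutrophil-like cells only, so their place among the 7 was close to fixed by that minimum, and nothing is read from the count. Il18 went the other way, with 13.4 CPM in neutrophil-like and 27.9 CPM in monocyte-like cells, and did not pass 2-fold. The described genes were left out when the clusters were built. These ratios still only describe the classes and test nothing.

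Within the neutrophil-like class, sub-clusters differed in these genes. The immature subtype (37 cells, led by the granule genes Ngp and Camp) had 106 CPM of Il1b, against 12289 CPM in the other 377 neutrophil-like cells. Il1r2 stood at 462 CPM in immature cells and 3757 CPM in the others, and Nlrp3 at 75.7 CPM and 796 CPM. Of the 7 genes tested, 5 were at least 2-fold lower in the immature subtype (Il1b, Il1rn, Il1r2, Il1rap and Nlrp3), where 17.7% of all features were. Il18rap was nearer, at 170 CPM in immature cells and 259 CPM in the others. Il1b was found in 11 of the 37 immature cells, at a median depth of 5879 UMIs. Without the immature subtype, the Il1b level in library 1 was 7277 CPM, nearer to 14402, 11944 and 11935 CPM in libraries 2, 3 and 4, and that of Il1r2 was 4224 CPM, within the range of the others.

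A sub-cluster carrying markers of aged or tissue neutrophils (87 cells, led by Ccrl2, Ccl3 and Gadd45b) had the highest Il1b level of the 5 sub-clusters, 15100 CPM [14618 to 15594]. Its Il1r2 stood at 4541 CPM, Nlrp3 at 1283 CPM and Il1rn at 220 CPM. Nlrp3 was 1283 CPM here and 513 CPM in the other neutrophil-like cells, and it is among the genes that lead this sub-cluster. Il1rn was 2.21 times the level of the others [1.56 to 3.09], and Il1a 24.5 times [5.35 to 228], which rests on 11 UMIs in 2.30% of its cells. These 3 genes passed 2-fold, as did 3.27% of all features, while Il1b (1.73 times) and Il1r2 (1.63 times) did not. Il1a reached the minimum of 20 CPM only in this sub-cluster and Nlrp3 is among its leading genes, so nothing is read from that count. Nlrp3 in this subtype varied between libraries, with 567, 1927, 766 and 1526 CPM, and library 1 gave 5 cells. The other 3 sub-clusters, 1 of them led by interferon genes, carried no subtype name and had 11092 to 12202 CPM of Il1b and 2384 to 3976 CPM of Il1r2. Haemoglobin transcripts led the sub-cluster with the least Il1r2, and the early-response sum was 16717 CPM in the aged or tissue subtype and 1257 CPM in the immature subtype; the part of either in these levels was not tested.

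In macrophage-like cells the same genes were carried by different sub-clusters. The lipid-associated subtype (79 cells, led by Spp1, Retnla and Gpnmb) had 493 CPM of Il1b [444 to 546], 89.2 CPM of Il1rn [69.0 to 113] and 128 CPM of Nlrp3. A sub-cluster led by Ccl4, Cd83 and Atf3 (267 cells) had 363 CPM of Il1b and the highest macrophage-like Nlrp3, 210 CPM. Its early-response sum was 17775 CPM, above the 5885 CPM of the lipid-associated subtype, and its part in these levels was not tested. The serous-cavity subtype (102 cells, led by Saa3, Slpi and Prg4) had 130 CPM of Il1a [111 to 153]. It held 155 of the 223 macrophage-like Il1a UMIs, with a UMI in 44.1% of its cells at full depth, where their median was 11412.5 UMIs, and in 12% when thinned. Its cells came almost entirely from libraries 2 and 4 (67 and 33 cells, against 0 in library 1 and 2 in library 3), the libraries with the high Il1a of the whole class. Among the named subtypes, the resident ones had the lowest Il1b, 7.6 CPM and 17.1 CPM, and 47.3 and 30.8 CPM of Nlrp3. Il1b and Nlrp3 occurred together in 24.1% of lipid-associated cells (product 15.3%) and in 7.30% of the whole class (product 4.65%).

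**Figure D5:**
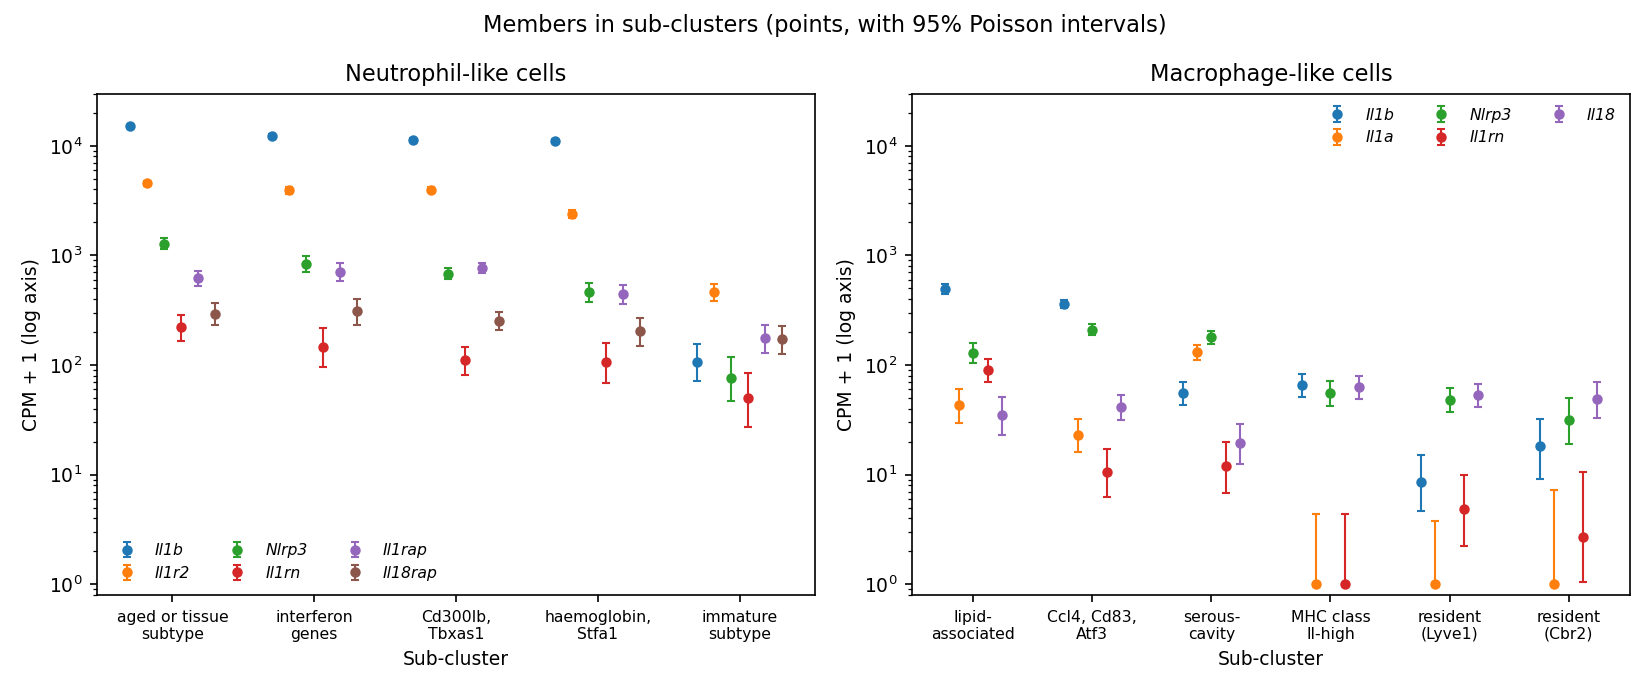
Levels of member genes (vertical axes, CPM + 1, log scale) in sub-clusters of neutrophil-like (left) and macrophage-like (right) cells, with exact Poisson 95% intervals. Il1b lies at 15100 CPM in the aged or tissue neutrophil-like subtype and at 106 CPM in the immature subtype, and Il1a peaks at 130 CPM in the serous-cavity macrophage-like subtype.

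Il1b and Il1rn differed in level between macrophage-like cells with and without a reporter UMI. A tdTomato UMI was found in 17.1% [14.9 to 19.5] of macrophage-like cells at a median of 5529.5 UMIs. As a background, fibroblast-like cells had 8.76% [8.14 to 9.40] at 6383 UMIs. Endocardial-like cells had a higher share, 10.7% [9.62 to 11.9] at 3838 UMIs, so the background differs by class. The part of free RNA in this split was not tested. The 190 macrophage-like cells with a tdTomato UMI had 249 CPM of Il1b [226 to 275], against 127 CPM [117 to 137] in the 920 cells without. Il1rn stood at 37.6 CPM [28.8 to 48.4] in cells with tdTomato and 7.71 CPM [5.53 to 10.5] in cells without, whereas Nlrp3 was 115 CPM and 113 CPM. Cells with the reporter UMI were also deeper, with a median of 6752.5 UMIs against 5344, and a cell without that UMI may still carry the reporter. In neutrophil-like cells, 58 of 414 had tdTomato, and Il1b was 9380 CPM in those and 9982 CPM in the rest. In non-classical monocyte-like cells Il1b was 1311 CPM in the 332 cells with tdTomato and 862 CPM in the 71 without.

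Il18 had its highest level in cells of the heart's surface lining. Epicardial or mesothelial-like cells had 172 CPM [155 to 191] with a UMI in 60.5% of cells, and 181, 157, 131 and 190 CPM in the 4 libraries. That is 3.96 times [3.39 to 4.63] the level of macrophage-like cells, 43.5 CPM, which in turn overlapped with dendritic-like cells at 42.1 CPM. The median depth of epicardial or mesothelial-like cells was 6853 UMIs, against 4325 in T cell-like cells, the background, where 0.149% of cells had a UMI. B cell-like cells had 28.5 CPM, but with 11.2, 29.9, 2.59 and 45.1 CPM in the libraries, so library 4 was high and library 3 close to 0. Neutrophil-like cells, first for Il1b, had 13.4 CPM of Il18. By share, epicardial or mesothelial-like cells held 25.5% of all Il18 UMIs, macrophage-like cells 21.0%, fibroblast-like cells 17.2% and B cell-like cells 15.3%, so most Il18 UMIs lay outside the class with the highest level.

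Il18r1, the binding chain of the IL-18 receptor, was level between NK cell-like and T cell-like cells. NK cell-like cells had 267 CPM [230 to 309] and T cell-like cells 269 CPM [251 to 289], a ratio of 0.992 [0.840 to 1.17]. In NK cell-like cells the libraries gave 163, 338, 279 and 318 CPM, and in T cell-like cells 282, 257, 259 and 306 CPM. Epicardial or mesothelial-like cells came next with 209 CPM, found in 52.7% of cells, where the fibroblast-like background was 0.0637%. Their libraries had 284, 114, 203 and 245 CPM, each above the neutrophil-like level of 36.6 CPM over all libraries. ILC2-like cells had 41.6 CPM.

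Il18rap, the accessory chain, separated these classes. NK cell-like cells had 451 CPM [402 to 504] with a UMI in 69.6% of cells, and 203, 558, 630 and 445 CPM in the libraries. Neutrophil-like cells were second at 242 CPM [216 to 270], with 183, 324, 225 and 223 CPM, a UMI in 47.8% of cells and 30.4% of all Il18rap UMIs. In fibroblast-like cells, the background for this gene, 0.0765% of cells had a UMI at a median of 6383 UMIs. T cell-like cells had 57.9 CPM and ILC2-like cells 55.4 CPM. Epicardial or mesothelial-like cells had 443 Il18r1 UMIs and 0 Il18rap UMIs in 311 cells, where the interval of the share of cells with a UMI reached 1.18%. Of the 4 genes tested between NK cell-like and T cell-like cells, Il18rap was 7.79 times higher [6.45 to 9.43] in NK cell-like cells and Il1r1 was lower, with 1 UMI in NK cell-like and 182 in T cell-like cells, the only one of the pair where it reached 20 CPM. Among all 6777 features, 5.61% were at least 2-fold higher and 3.22% lower.

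Both chains of the IL-18 receptor were found together in 67 of 158 NK cell-like cells (42.4% [34.6 to 50.5]), where the product of the shares is 36.1%. The libraries gave 20.5%, 57.5%, 55.0% and 38.2%, with library 1 the lowest. In T cell-like cells 12.2% had both (product 7.16%), and in neutrophil-like cells 3.86% (product 3.47%), since 47.8% of these had Il18rap but 7.25% had Il18r1. Of 211 cells with both chains, 82 were T cell-like, 67 NK cell-like and 16 neutrophil-like. Thinned to 1000 UMIs, the NK cell-like share was 10.4% (product 6.75%).

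Among T cell-like cells, a gamma-delta or IL-17 subtype (77 cells) carried Il1r1 and Il18r1. Il1r1 is among the genes that lead it, so its level describes the sub-cluster. The subtype held 179 of the 182 Il1r1 UMIs of the class, at 472 CPM [406 to 547], with 547, 622, 351 and 269 CPM in the 4 libraries. That level was above the 261 CPM of venous endothelial-like cells, the highest class, but in library 4 it was below their 310 CPM. Its Il18r1 level was 1045 CPM [945 to 1153], and its Il18rap level 135 CPM. Il18r1 and Il1r1 occurred together in 72.7% of its cells (product 70.4%), and in 20.8% when thinned. Il1rap in the same cells was 18.5 CPM, and 4 of the 77 had both Il1r1 and Il1rap.

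Fibroblast-like sub-clusters also differed in Il1r1. The level ran between 43.5 CPM in a sub-cluster of 961 cells and 229 CPM [203 to 258] in 1 of 171 cells led by Cxcl1 and Fos. A further sub-cluster of 539 cells had 214 CPM with a UMI in 72.0% of cells. The early-response sum was 11988 CPM in the sub-cluster with the most Il1r1 and 5887 CPM in that with the least, and its part in these levels was not tested. Library 1 gave 119 of the 171 cells of the first.

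Downstream genes were spread by class. Of 8 signal adaptors and kinases, Myd88 and Irak2 were highest in neutrophil-like cells, at 94.0 and 215 CPM. Myd88 is the adaptor of IL-1 and IL-18 receptors, and Irak2 is a kinase. The next classes were close, with 83.9 CPM of Myd88 in classical monocyte-like and 210 CPM of Irak2 in NK cell-like cells. Of all features, 6.7% were highest in neutrophil-like cells. Of the list of brakes on the signal, whose 7 genes also include Il1rl2, a receptor chain for IL-36 that is itself no brake, none was highest there. Irak3, an inactive kinase that dampens the signal, had 132 CPM in neutrophil-like and 253 CPM in non-classical monocyte-like cells. Il1rl2 was highest in pericyte-like cells at 29.5 CPM. Of 10 genes known to rise with IL-1 or NF-kB signalling, 4 were highest in neutrophil-like cells: Cxcl2 (4254 CPM), a neutrophil-attracting chemokine, Nfkbiz (944 CPM), Ptgs2 (372 CPM) and Zc3h12a (85.8 CPM). Zc3h12a was nearly as high in ILC2-like cells, at 81.4 CPM. Another 4 were highest in macrophage-like cells, where 3.54% of all features were: Ccl2 (196 CPM), Cxcl1 (176 CPM), Il6 (97.2 CPM) and Csf3 (1.58 CPM). Icam1, an adhesion molecule for leukocytes, was highest in dendritic-like cells at 274 CPM. Venous endothelial-like cells followed at 177 CPM and macrophage-like cells at 172 CPM. A link between Il1r1 and the level of these genes was not tested.

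Over the 19 classes, the features whose log2(CPM + 1) values were most like each gene were sought among 8198 features. Il1b was most like Mcemp1 (Pearson r 0.979) and Il1rn (0.977), and Il1rn was most like F630028O10Rik (0.986). Nlrp3 was most like Il1b (0.970), Alox5ap (0.970) and Ccl6 (0.960). Il1r2 was most like Cebpe (0.963), Il1rap like Scrg1 (0.920) and Il18rap like Cd101 (0.940), all highest in neutrophil-like cells. Il1r1 was most like Fam124a (0.836), Il18r1 like Trbc1 (0.811), Il18 like Rbm47 (0.867) and Il1a like Cd33 (0.827). The classes share libraries and differ in depth, so these values are descriptions.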

How the data were processed

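Cells were measured with the 10x Genomics 3′ assay, v3.1 chemistry, per the labels' protocols. The deposited matrix holds whole-number UMI counts per gene and barcode; the submitters' processing notes name Cell Ranger 7.1.0 and mm10. No label or header says whether intronic reads were counted or how the libraries were joined.

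Barcodes needed 500 UMIs, 250 genes and at most 15% mitochondrial UMIs (821 failed). Scanpy 1.11.5 gave doublet scores per library, and 1316 barcodes were removed. Library 3's automatic threshold of 0.613 marked 0, so the median of the other libraries' thresholds, 0.208, was used. Cells were clustered (2000 variable genes, 30 components, Leiden resolution 1). Classes were named from marker lists: at least 3 markers 2-fold up and a mean log2 fold of at least 1. Subtypes within a class also needed at least 3 markers 2-fold up over the rest of the class. Their mean log2 fold only had to be not negative, a looser rule than for classes. The described genes, the pathway lists and tdTomato were left out of clustering and sub-clustering. So were sex-linked, red blood cell, cardiomyocyte, mitochondrial and ribosomal protein genes. Chosen after clusters were seen were the leaving out of haemoglobin and cardiomyocyte markers from naming clashes and the division of unnamed and immune clusters. Also chosen then were the removal of sub-clusters with a foreign class's markers, the mean fold for classes, and the check of the MHC class II list.

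The 10 genes, marker lists and pathway lists (47 genes in 5 lists, all matched) were chosen with earlier results of these data known. Named were all 10 genes in every class of at least 50 cells, list genes first or second by CPM in the class discussed or counted whole, and the 3 features most alike. Values outside this rule (Pycard, Casp1 and Gsdmd in neutrophil-like cells) were chosen after they were seen. Ratios have exact conditional binomial intervals. Scripts were tested on simulated data. Alternatives were a stricter cell filter, doublets kept, Leiden resolution 2, thinning to 1000 UMIs, cells weighted alike, classes called from markers per cell, and leaving out each library. No columns were left unmapped. Gene coordinates are from GENCODE vM21 and promoters from RefSeq.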

Additional observations from a re-analysis of the deposited data

How the results depend on the processing

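The 7 summary values were recomputed under 10 other settings. Of the 66 recomputed values, 20 moved by more than the counting interval and 46 did not. The 46 include the number of genes at least 2-fold higher in neutrophil-like than in monocyte-like cells. That number has no counting interval and was 7 under all 10. The Il1b level in neutrophil-like cells (9887 CPM) was 11348 CPM with cells thinned to 1000 UMIs and 11590 CPM with cells weighted alike, and 9150.5 to 11633 CPM with 1 library left out, the highest without library 1. The share of Il1b UMIs in these cells (66.0%) was 60.5% with doublets kept, 81.2% thinned, 68.9% with classes called by markers per cell, and 61.6% to 72.2% with 1 library left out. Il1r2 detection in neutrophil-like cells with Il1b (94.5%) was 86.3% thinned and 93.2% to 97.3% with 1 library left out. Joint detection of Il1r1 and Il1rap in fibroblast-like cells (8.03%) was 0.349% thinned and 7.64% to 9.06% with 1 library left out. Joint detection of Il18r1 and Il18rap in NK cell-like cells (42.4%) was 10.4% thinned, 51.1% with classes called by markers per cell, and 37.3% to 50.9% with 1 library left out, the highest without library 1. The Il1r1 level in pericyte-like cells (146 CPM) ranged over 140 to 154 CPM with 1 library left out. By construction, thinning leaves fewer UMIs, which lowers detection. It also gives each cell the same total, so deep cells lose their greater weight in levels and in shares of UMIs. The part of this weighting in the higher thinned Il1b level and share was not tested, nor was the cause of the other moves. No paired analysis was possible because no label ties a library to a sample. Joint detection depends on depth, so its shares hold at the stated depth only.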
